A study of Mus musculus with 2 samples.

Results

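The mouse genes of cytochrome P450 family 2, whose symbols begin with Cyp2 followed by a letter and a number, were taken from the protein-coding genes of the GENCODE M21 annotation by symbol alone. There were 48 such genes among 21938 protein-coding genes on the assembled chromosomes. They were set against CTCF ChIP-seq peaks from the liver of B6NCrl mice on the day of birth (postnatal day 0), for which the labels name no genetic change and no treatment. Both samples are biological replicates of this 1 group, made from livers that were pulverized and pooled over several dissections, and their biosample and donor labels are the same. Differences between them may therefore be technical. Sex was not recorded. The labels also name a control experiment, which was not analysed here. A peak list holds no expression level, so the tissue label could not be checked against marker genes.

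Family 2 is the broadest group of drug- and steroid-metabolising P450 enzymes. These are haem proteins of the endoplasmic reticulum that take electrons from P450 reductase and oxidise drugs, fatty acids, steroids and bile acids. In rodents most of the genes arose by tandem duplication and stand side by side in subfamily clusters, many with sex-biased or drug-induced expression in adult liver. CTCF binds DNA through zinc fingers, at a motif that has a direction, and halts cohesin, the ring complex that extrudes chromatin loops. Loops form mostly between CTCF motifs that point toward each other.

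By subfamily, the 4 Cyp2a genes were Cyp2a4, Cyp2a5, Cyp2a12 and Cyp2a22, and the 5 Cyp2b genes were Cyp2b9, Cyp2b10, Cyp2b13, Cyp2b19 and Cyp2b23. The 15 Cyp2c genes were Cyp2c23, Cyp2c29, Cyp2c37, Cyp2c38, Cyp2c39, Cyp2c40, Cyp2c50, Cyp2c54, Cyp2c55, Cyp2c65, Cyp2c66, Cyp2c67, Cyp2c68, Cyp2c69 and Cyp2c70. The 8 Cyp2d genes were Cyp2d9, Cyp2d10, Cyp2d11, Cyp2d12, Cyp2d22, Cyp2d26, Cyp2d34 and Cyp2d40, and the 8 Cyp2j genes were Cyp2j5, Cyp2j6, Cyp2j7, Cyp2j8, Cyp2j9, Cyp2j11, Cyp2j12 and Cyp2j13. Cyp2e1, Cyp2f2, Cyp2g1, Cyp2r1, Cyp2s1, Cyp2t4, Cyp2u1 and Cyp2w1 were the single members of their subfamilies. Joining members whose gene bodies lay at most 200 kb apart gave 5 clusters with 43 members over 3.25 Mb. These were a Cyp2j cluster on chromosome 4, a Cyp2s1 to Cyp2a4 and a Cyp2b23 to Cyp2t4 cluster on chromosome 7, a Cyp2d cluster on chromosome 15 and a Cyp2c cluster on chromosome 19. The other 5 members, Cyp2c23, Cyp2e1, Cyp2r1, Cyp2u1 and Cyp2w1, stood alone.

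The authors' optimal list, thresholded by the irreproducible discovery rate (IDR, which keeps peaks whose rank repeats between lists), had 100 peak summits inside these loci or within 50 kb of their ends, of 57197 on assembled chromosomes. Of these 100 peaks, 99 had a summit within 100 bp in the list of replicate 1, 100 in that of replicate 2, and 88 in the conservative IDR list. Signals are the authors' deposited values and are compared within a list only. The 100 peaks had a median signal of 70.8 and ran from 12.1 to 530.7, beside a median of 71.2 in the whole list. Across the 99 peaks found in both replicate lists, Spearman's rho of the signal was 0.957. The list was made from these same replicates, and neighbouring peaks share libraries, so this is a description only. Within 50 bp of the summit, 71 of the 100 peaks (71%, 95% Clopper-Pearson interval 61.1 to 79.6) held the 14-base CTCF core with at most 2 mismatches on either strand, against 71.2% of all peaks. In core share and median signal the 100 peaks were close to the list as a whole, but 58 of them lay in flanks and the parts differed. Median signal was 64.8 in the cluster spans, 103.2 in the cluster flanks, 55.4 in the lone genes and 48.3 in their flanks. By cluster span it ran from 15.1 for Cyp2j to 116.5 for Cyp2s1 to Cyp2a4.

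**Figure D1:**
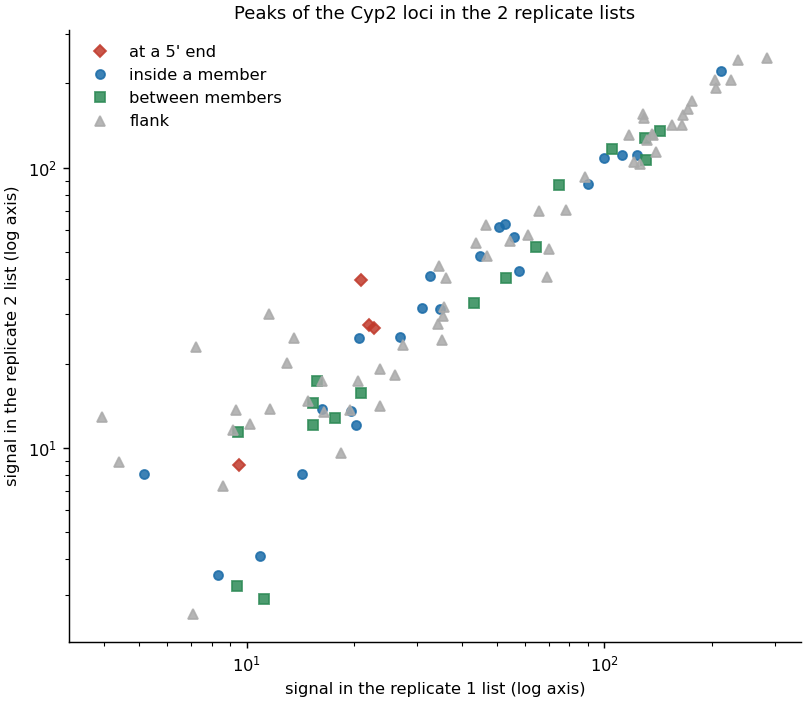
Signal of each peak of the Cyp2 loci in the replicate 1 list (horizontal, log axis) and the replicate 2 list (vertical, log axis), for the 99 peaks matched in both, by position of the summit. The points follow 1 diagonal (Spearman's rho 0.957), and the scatter is widest among weak peaks.

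Peaks were rare at the 5' ends of Cyp2 genes. A summit lay within 1 kb of the gene's 5' end in 4 of 48 members (8.33%, 95% interval 2.32 to 19.98), against 28.3% of all protein-coding genes. These were Cyp2d10, Cyp2j9, Cyp2r1 and Cyp2u1. The background depends on base composition: it was 45.7% for genes with a CpG-rich promoter (500 bp on each side of the start with at least 50% GC and at least 0.6 times the CpG count that base composition predicts) and 14.4% for the others. Only 2 members, Cyp2r1 and Cyp2u1, had a CpG-rich promoter, and both had a 5' peak. Of the 46 CpG-poor members, 2 had one, a count to be set beside the 14.4% and not the 28.3%. No interval was computed for it, so whether it falls below 14.4% was not tested. Neighbouring members share ancestry and are not independent, so these shares carry no test.

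Cyp2r1 makes the circulating form of vitamin D in liver. Its peak lay in an intron 306 bp from the 5' end, with a signal of 60.2 in the optimal list, 20.9 in replicate 1 and 39.9 in replicate 2. The sequence, on the plus strand of mm10 at chr7:114562639-114562678 with the core in capitals, is shown because it was the only one of these 4 peaks with a core.
Cyp2r1: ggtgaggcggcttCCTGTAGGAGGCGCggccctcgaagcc

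Cyp2u1 encodes a hydroxylase of long-chain fatty acids. Its peak lay 173 bp inside the gene in a coding exon that overlaps an exon of the antisense gene 4930534D22Rik, with a signal of 50.7 in the optimal list, 22.7 in replicate 1 and 26.8 in replicate 2. Cyp2j9 had a peak 340 bp upstream of its start, with a signal of 50.6, and 22.0 and 27.5 in replicates 1 and 2. The Cyp2d10 peak lay 96 bp upstream and was the weakest, at 19.0, with 9.5 and 8.7 in the replicates. All 4 signals lay below the list's median of 71.2. Just outside the 1 kb limit were Cyp2w1, with a peak 1085 bp inside the gene (signal 101.2), and Cyp2e1, with one at 2.75 kb (23.4). When every annotated transcript start of a gene was used, 7 of 48 members had a peak within 1 kb, against 7943 of 21938 protein-coding genes. The added members were Cyp2b10, Cyp2b19 and Cyp2w1.

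Peaks inside the genes were also less frequent than among protein-coding genes at large. A summit lay inside 15 of 48 members (31.2%, 95% interval 18.7 to 46.3), against 53.7% of all protein-coding genes. The members had a median length of 23.8 kb, against 17.4 kb, and a mean length of 27.5 kb, against 49.0 kb. The 24 peaks inside members came to 18.2 per Mb of gene, against 30.4 for all genes. All 5 lone members held a peak, with 8 peaks in all, and 10 of the 43 clustered members did. The median distance from a member's 5' end to the nearest peak was 27.5 kb, against 5.70 kb for all protein-coding genes. A peak lay within 10 kb for 12 members (25%), against 59.8%, and the nearest was over 100 kb away for 8 members (16.7%), against 9.38%.

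**Figure D2:**
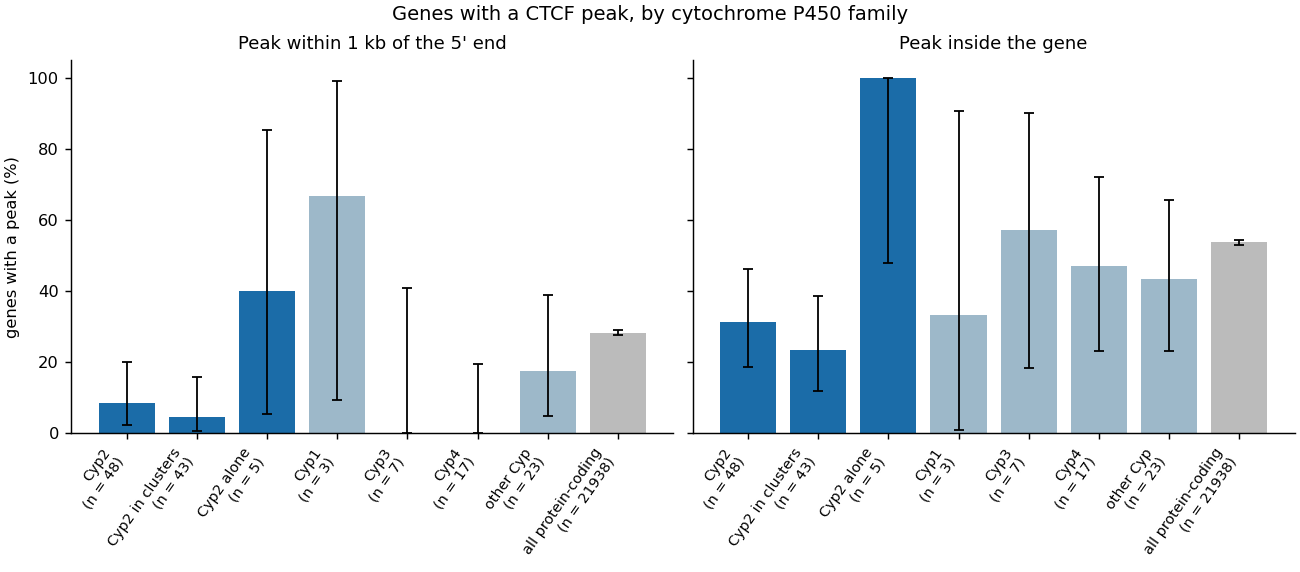
Share of genes (%) with a peak within 1 kb of the 5' end (left) and inside the gene (right), for Cyp2 genes, other P450 families and all protein-coding genes, with exact 95% intervals that cover counting error only. The Cyp2 share is 8.33% against 28.3% at 5' ends and 31.2% against 53.7% inside genes. The groups are not matched for CpG-rich promoters or gene length.

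By subfamily, 4 of 5 Cyp2b members held a peak inside the gene, 3 of 15 Cyp2c, 1 of 8 Cyp2d, 1 of 8 Cyp2j and 0 of 4 Cyp2a, which allows a share of up to 60.2%. Their median gene lengths were 29.0, 40.2, 4.93, 41.6 and 8.08 kb in the same order, so these counts do not compare like with like. Among the single members, Cyp2e1, Cyp2f2, Cyp2r1, Cyp2s1, Cyp2u1 and Cyp2w1 held one, while Cyp2g1 and Cyp2t4 did not. At 5' ends the Cyp2a, Cyp2b and Cyp2c subfamilies had 0 of 4, 0 of 5 and 0 of 15, which allow shares of up to 60.2%, 52.2% and 21.8%. The median distance to the nearest peak was longest in Cyp2c, at 86.1 kb (5.93 to 435.3), followed by Cyp2a at 77.9 kb (13.4 to 160.7), Cyp2b at 27.3 kb (5.73 to 52.7), Cyp2j at 22.5 kb (0.34 to 74.5) and Cyp2d at 15.8 kb (0.096 to 113.0). The ranges of all 5 overlap. Of the 8 members over 100 kb from a peak, 6 were Cyp2c genes (Cyp2c29, Cyp2c38, Cyp2c39, Cyp2c40, Cyp2c67 and Cyp2c68), and the others were Cyp2a22 and Cyp2d34.

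The other P450 families gave mixed values. Cyp1, with 3 genes, had 2 with a 5' peak and 1 with a peak inside. Cyp3 had 0 of 7 and 4 of 7, Cyp4 had 0 of 17 and 8 of 17, and the remaining Cyp genes 4 of 23 and 10 of 23. A count of 0 of 7 allows up to 41.0% and 0 of 17 up to 19.5%, and the 8.33% of Cyp2 lies within both limits.

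Within the 5 cluster spans there were 34 peaks, or 10.5 per Mb, against 23.3 per Mb over all autosomes. Of these, 18 lay between members and 16 inside them. The 50 kb on each side of the clusters held 28 peaks, or 56 per Mb. Density was lower in the span than on the same chromosome in each cluster: 4.24 against 31.4 per Mb for Cyp2c, 7.85 against 24.3 for Cyp2j, 9.44 against 23.6 for Cyp2d, 18.2 against 26.4 for Cyp2b23 to Cyp2t4, and 21.5 against 26.4 for Cyp2s1 to Cyp2a4. The 2 clusters of chromosome 7 were thus the nearest to their chromosome. The clusters hold many near-identical copies, and the share of 36-base words found once in the genome was 59.4% over the Cyp2c span, 62.0% over Cyp2s1 to Cyp2a4, 64.9% over Cyp2b23 to Cyp2t4, 69.7% over Cyp2d and 76.3% over Cyp2j, and 91.9 to 98.2% over the lone genes. How reads with several places were treated is not given in the sources used here, and the part of this in the low densities was not tested.

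**Figure D3:**
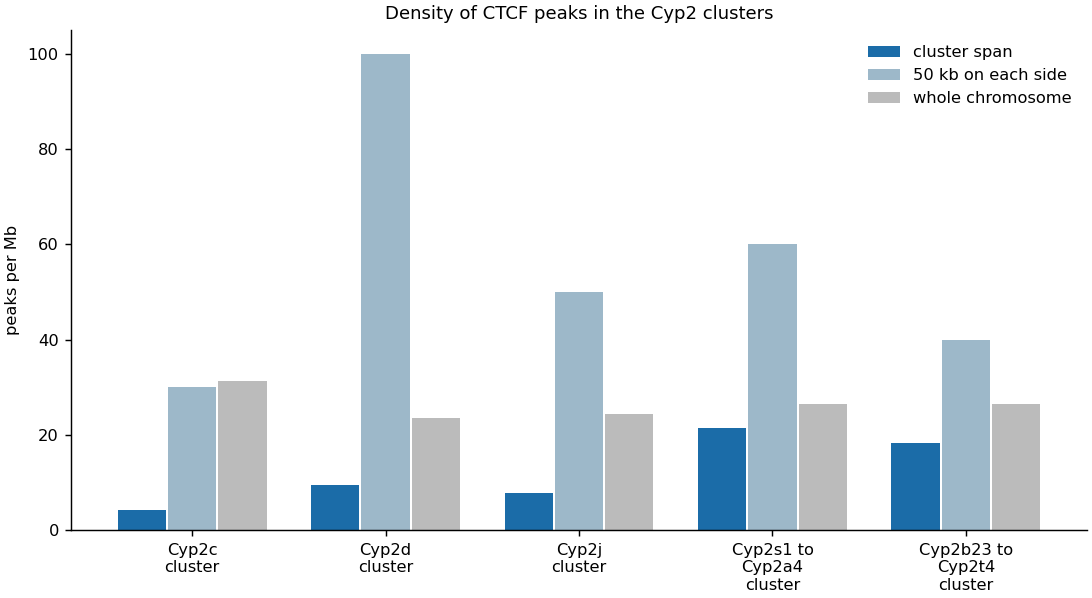
Peaks per Mb (vertical) in the span of each Cyp2 cluster, in the 50 kb on each side of it and on its whole chromosome. Spans run from 4.24 to 21.5 per Mb, flanks from 30 to 100 and chromosomes from 23.6 to 31.4.

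**Figure D4:**
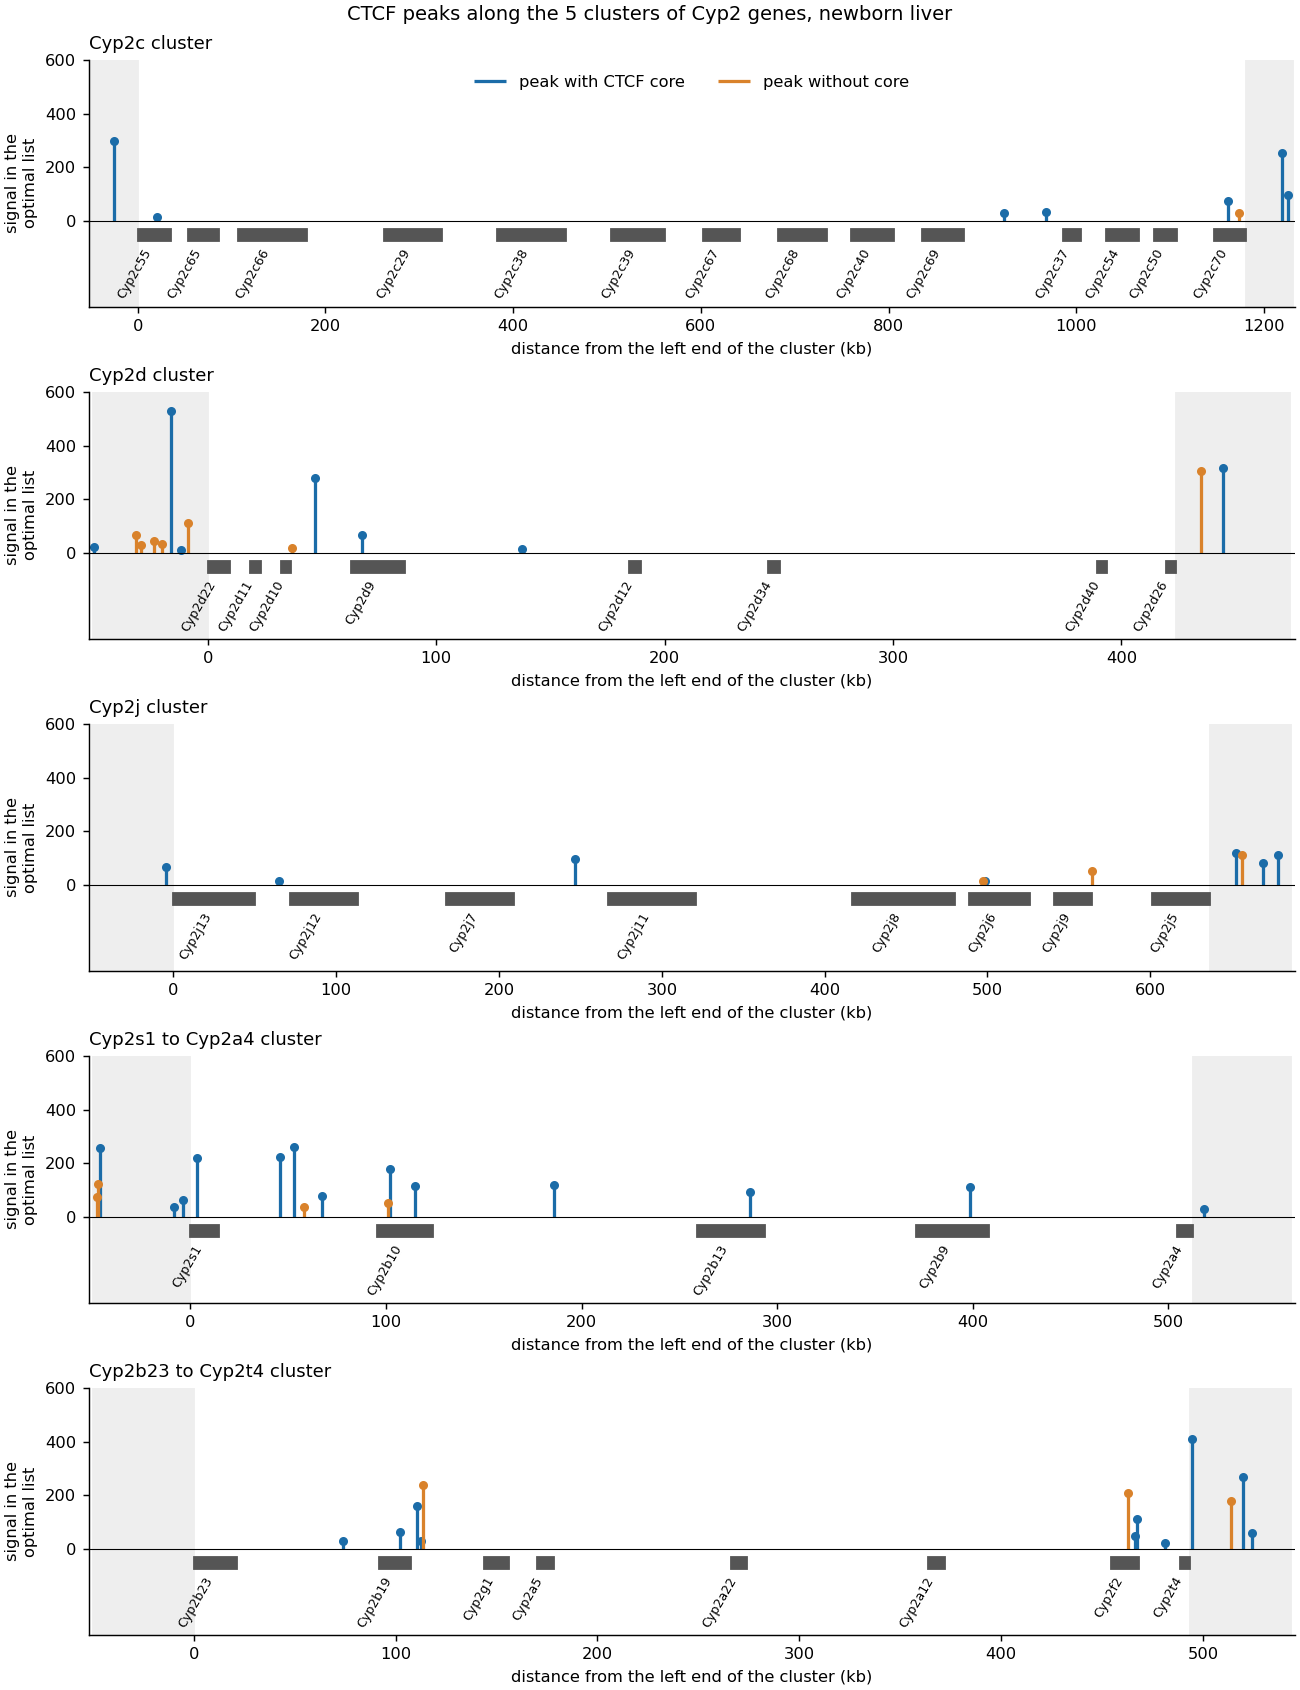
Peaks (stems, height is the signal in the optimal list) along the 5 clusters by distance from the left end in kb, with members as dark boxes and the 50 kb flanks shaded; blue stems hold the CTCF core and orange ones do not. The Cyp2c map shows 902.5 kb without a peak. The tallest stem stands in a flank in every map except that of Cyp2s1 to Cyp2a4 (259.7 in the span and 258.5 in the flank).

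In the Cyp2b subfamily 1 site recurred from gene to gene. Cyp2b10 is the classic phenobarbital-induced P450 of mouse liver, Cyp2b9 and Cyp2b13 are known as female-biased in adult liver, and Cyp2b19 is known from skin. Each of these 4 genes carried a peak over the same sequence in intron 8, with the core on the coding strand and its centre 35 or 36 bp past the end of the exon before it. In 60-base windows aligned on this core there were 9 copies in the 2 clusters of chromosome 7, counting pseudogenes, and 6 of them had a peak. The 7 distinct sequences are shown, each 5' to 3' on the strand of the core, with the core in capitals, since the copies with and without a peak differ within it. On mm10 they lie at chr7:25917436-25917495 (Cyp2b10, plus strand), chr7:25988462-25988521 (beside the pseudogene Gm45225, plus), chr7:26201239-26201298 (Cyp2b9, plus), chr7:26739099-26739158 (pseudogene Gm45034, plus), chr7:26767252-26767311 (Cyp2b19, plus), chr7:26014994-26015053 (pseudogene Cyp2b27-ps, minus) and chr7:26672659-26672718 (Cyp2b23, minus). The Cyp2b13 copy at chr7:26088749-26088808 is identical to that of Cyp2b10, and the copy beside Cyp2b26-ps at chr7:26134691-26134750 is identical to that of Cyp2b27-ps.
Cyp2b10, peak: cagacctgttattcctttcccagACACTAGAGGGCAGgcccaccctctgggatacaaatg
beside Gm45225, peak: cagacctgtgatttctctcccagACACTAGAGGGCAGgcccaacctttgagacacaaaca
Cyp2b9, peak: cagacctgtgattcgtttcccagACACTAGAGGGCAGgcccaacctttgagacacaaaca
Gm45034, peak: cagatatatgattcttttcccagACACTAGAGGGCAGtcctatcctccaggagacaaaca
Cyp2b19, peak: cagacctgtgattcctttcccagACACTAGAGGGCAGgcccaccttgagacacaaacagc
Cyp2b27-ps, no peak: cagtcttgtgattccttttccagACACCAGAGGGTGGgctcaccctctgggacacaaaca
Cyp2b23, no peak: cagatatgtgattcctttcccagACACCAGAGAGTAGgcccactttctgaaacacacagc

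All 6 copies with a peak had the identical core, with 1 mismatch to the CTCF core, and all 3 without one had a changed core. Counting from 1 at the 5' end of the core, with the Cyp2b10 base first, the changes were T5C, G10A and C12T in Cyp2b23, and T5C, C12T and A13G in Cyp2b27-ps and the copy beside Cyp2b26-ps. These left 3 mismatches to the CTCF core in Cyp2b23 and 2 in the others. The signal in the optimal list was 117.9 beside Gm45225, 116.5 in Cyp2b10, 112.4 in Cyp2b9, 93.8 in Cyp2b13, 62.5 in Cyp2b19 and 30.5 in Gm45034. Replicates 1 and 2 gave 64.3 and 52.3 beside Gm45225, 52.8 and 62.7 in Cyp2b10, 55.9 and 56.8 in Cyp2b9, and 45.1 and 48.3 in Cyp2b13. They gave 31.0 and 31.5 in Cyp2b19 and 15.3 and 14.5 in Gm45034. The first 3 overlap in their replicate values. Cyp2b13, then Cyp2b19 and then Gm45034 were lower than these in both replicates, on the same core.

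Around each core, within 50 bp, the share of 36-base words found once in the genome was 100% in Cyp2b19 and Gm45034, 70.3% in Cyp2b9, 59.4% beside Gm45225, 41.6% in Cyp2b10 and 30.7% in Cyp2b13. The Cyp2b13 summit lay 40 bp from the core. The aligned copy windows of Cyp2b13 and Cyp2b10 are identical, so within them these copies cannot be told apart by sequence. Around the Cyp2b13 summit itself 59.4% of 36-base words were found once, so the sequence there is in part distinct. Of the copies without a peak, Cyp2b23 had 74.3% such words and no call there in the pooled list either, which reaches far weaker peaks. The pair Cyp2b27-ps and beside Cyp2b26-ps had 0%, and the pooled list had weak calls of 10.4 and 10.1 there. For that pair a missing peak and unplaceable reads cannot be told apart. Beyond the shared site, Cyp2b10 held 2 more intron peaks at 5.73 and 6.63 kb from its 5' end, with signals of 52.7 and 178.5, the second with the core on the minus strand.

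**Figure D5:**
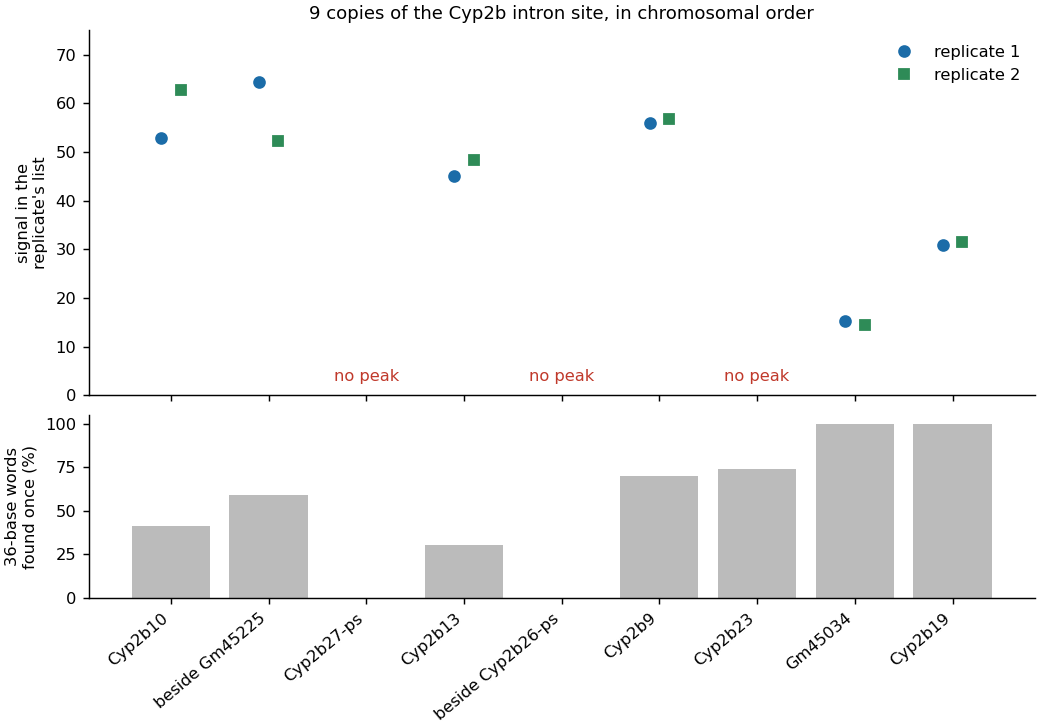
Signal of the peak at each of the 9 copies of the Cyp2b site in the replicate 1 and replicate 2 lists (top) and the share of 36-base words around the core found once in the genome (bottom, %), in chromosomal order. The 6 copies with a peak run from 14.5 to 64.3, and 3 copies have none.

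The rest of the chromosome 7 clusters was uneven. Cyp2s1, a dioxin-inducible P450 expressed mainly outside the liver, held a peak in an annotated exon 11.2 kb from its 5' end, with a signal of 220.6, and 111.9 and 110.7 in replicates 1 and 2. Between Cyp2s1 and Cyp2b10 stood the strongest peak of that span, at 259.7 (130.5 and 127.6), and another over a perfect core at 224.0 (105.4 and 116.9). Weaker peaks of that interval had signals of 76.5 and, in an intron of the noncoding gene Gm30146, 38.1. Cyp2f2, the main naphthalene-oxidising P450 of mouse airway, held 3 intron peaks of 208.4, 113.0 and 46.9, the second over a perfect core. Between Cyp2b19 and Cyp2g1, which is known from olfactory mucosa, 3 peaks of 161.7, 30.6 and 238.4 stood 18.9, 20.8 and 21.6 kb from the 5' end of Cyp2b19. The following stretch to Cyp2f2 holds Cyp2g1, Cyp2a5, the coumarin hydroxylase, Cyp2a22 and Cyp2a12, and had no peak. A last peak of 23.4 lay between Cyp2f2 and Cyp2t4.

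The Cyp2c cluster, whose enzymes oxidise drugs and arachidonic acid, had the lowest density. Its 14 members over 1180.3 kb held 3 peaks inside genes and 2 between them. Cyp2c70, which makes muricholic bile acids in mouse liver, carried intron peaks of 74.8 (32.6 in replicate 1 and 41.0 in replicate 2) and 30.7 (16.2 and 13.8). Cyp2c55 carried 1 of 14.8 (5.2 and 8.1), which was not in the conservative list. The peaks between members, beyond Cyp2c69 and before Cyp2c37, had signals of 27.7 and 31.4. From the Cyp2c55 peak to the first of these the list had no peak over 902.5 kb, a gap that ranked 236 among the 57177 gaps between neighbouring peaks (0.413% were as long). It contains 9 whole members, Cyp2c65, Cyp2c66, Cyp2c29, Cyp2c38, Cyp2c39, Cyp2c67, Cyp2c68, Cyp2c40 and Cyp2c69. The pooled list had 23 calls there, none above 8.56, or 25.5 per Mb against 122.3 over all autosomes. In the gap 56.0% of 36-base words were found once. The longest gaps of the other clusters, some of which reach past the cluster's end, were 366.6 kb for Cyp2b23 to Cyp2t4, 297.5 kb for Cyp2d, 250.5 kb for Cyp2j and 119.3 kb for Cyp2s1 to Cyp2a4.

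The span of the Cyp2c cluster held 32 cores with at most 1 mismatch, and 0 of them had a peak. For 32 independent cores this would allow a share of up to 9.38%, but most of these lie in repeats. In the 4 other clusters together 16 of 52 cores with at most 1 mismatch had a peak (30.8%), against 33.3% over the genome. The near-equal totals hide unlike parts. Outside repeat-masked sequence 15 of 25 of these cores had a peak, and within it 1 of 27. The 16 include the 6 occupied copies of the Cyp2b site and a pair of Cyp2d copies described below. By cluster, cores with a peak were 3 of 14 in the Cyp2j cluster, 5 of 16 from Cyp2s1 to Cyp2a4, 5 of 14 from Cyp2b23 to Cyp2t4 and 3 of 8 in the Cyp2d cluster. In the Cyp2c span 30 of the 32 lay in repeat-masked sequence and 2 did not, and 8 lay in the pseudogene Cyp2c53-ps. The median share of words found once around the 32 was 2.48%. Where few words are found once, a missing peak and unplaceable reads cannot be told apart. Masked cores were less often occupied in the genome as well, at 18.6% against 42.4% of unmasked ones. In the clusters 15 of 27 unmasked cores had a peak and 1 of 57 masked ones did. Around the 16 cores with a peak the median share of words found once was 100%, and around the 68 without one it was 20.8%. Of the 21 cores where every word was found once, 11 had a peak. Of the 2 unmasked Cyp2c cores, both without a peak, 1 was perfect, with 90.1% of words found once. The other had 1 mismatch and 100%. Perfect cores had a peak in 4 of 5 cases in the cluster spans and in 79.7% over the genome. The Cyp2c70 intron site itself has 35 copies in the cluster that are 76.7 to 98.3% identical over 60 bases, and 0 had a peak. For 35 independent copies this would allow up to 8.57%, but these copies are related. Relative to the Cyp2c70 core, 34 of the 35 copies carried G10A and the other carried G10T, counted from 1 at the 5' end of the core, and 29 of the 35 carried further changes in the core. The copies had 2 to 6 mismatches to the CTCF core, and 1 of the 35 had at most 2. Their median share of words found once was 39.6%. The Cyp2c70 site is shown with its core in capitals, on the plus strand of mm10 at chr19:40168539-40168578.
Cyp2c70: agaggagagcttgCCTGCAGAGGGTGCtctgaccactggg

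Strong peaks stood just outside the Cyp2c cluster. On the left, 24.9 kb before Cyp2c55 and in an intron of the pseudogene Cyp2c52-ps, a perfect core on the plus strand had a signal of 297.2 (154.9 in replicate 1 and 141.8 in replicate 2). On the right, 38.3 kb beyond Cyp2c70 in an intron of Pdlim1, which encodes a cytoskeletal adaptor, a perfect core on the minus strand had 254.4 (139.6 and 113.9). Both were above each of the 5 peaks within the span, in both replicates. They lie 1243 kb apart, and their cores point toward each other across the cluster. Whether they are joined by a loop was not measured. The flanking cores of Cyp2c and of the clusters described next are shown as the strong sites on either side of the arrays, 5' to 3' on the strand of the core. Their mm10 positions are chr19:38982151-38982190 (plus), chr19:40225602-40225641 (minus), chr15:82354417-82354456 (plus), chr15:82814933-82814972 (plus) and chr7:27159976-27160015 (plus).
Cyp2c left: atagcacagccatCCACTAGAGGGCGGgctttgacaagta
Cyp2c right: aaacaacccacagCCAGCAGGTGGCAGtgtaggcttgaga
Cyp2d left: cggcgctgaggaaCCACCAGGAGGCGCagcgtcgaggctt
Cyp2d right: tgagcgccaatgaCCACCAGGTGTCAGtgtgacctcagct
Cyp2t4 side: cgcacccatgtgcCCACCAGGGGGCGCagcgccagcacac

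The Cyp2d cluster, whose human counterpart CYP2D6 metabolises many drugs, was flanked by the strongest of the 100 peaks. It lay 16.1 kb outside Cyp2d22 with a signal of 530.7 (286.3 in replicate 1 and 246.3 in replicate 2), rank 124 in the optimal list. There were 8 peaks on that side. The nearest of them, 8.58 kb outside Cyp2d22, had 110.1 (46.7 and 62.5). On the other side, beyond Cyp2d26, stood peaks of 307.1 (165.2 and 141.9) and, in an intron of Tcf20, a transcriptional coregulator, 317.4 (166.1 and 154.0). The cores of the left peak and the Tcf20 peak both lay on the plus strand. Within the span the peaks gathered at 1 end, near Cyp2d10 and Cyp2d9, a male-biased steroid hydroxylase. No peak lay in the 297.5 kb that hold Cyp2d12, Cyp2d34, Cyp2d40 and Cyp2d26. A peak of 15.6 in the pseudogene Gm27825 preceded this stretch and was 11.2 and 2.9 in replicates 1 and 2.

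A pair of Cyp2d peaks sat on a duplicated sequence. The strongest peak of the span, at 278.6 (143.1 and 135.1), lay 10.5 kb upstream of Cyp2d10. The peak in an intron of Cyp2d9 had 67.2 (34.7 and 31.3). Their 60-base windows were 95% identical, and the cores were the same, on the minus strand at the first and the plus strand at the second. Around each, all 36-base words were found once in the genome. The signal was higher at the first copy in both replicates. They are shown for comparison, from chr15:82417701-82417740 (minus) and chr15:82438035-82438074 (plus).
upstream of Cyp2d10: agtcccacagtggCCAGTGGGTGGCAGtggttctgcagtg
Cyp2d9 intron: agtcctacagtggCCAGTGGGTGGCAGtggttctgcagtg

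The Cyp2j cluster, with the epoxygenases of arachidonic acid, had weak peaks. Its strongest within the span, over a perfect core in an exon of the pseudogene Cyp2j15-ps between Cyp2j7 and Cyp2j11, had 95.4 (53.1 and 40.3). Cyp2j6 held 2 peaks, in an intron at 14.1 (8.3 and 3.5) and in a coding exon at 15.1 (10.9 and 4.1), and neither was in the conservative list. Another of 14.04 (9.41 and 3.22) lay between Cyp2j13 and Cyp2j12. These 3 peaks were among the weak calls of replicate 2, at rank 110021 or later of 300000, and at rank 58570 or earlier in replicate 1. Outside, the nearest peak before Cyp2j13 was in the 3' UTR of Hook1 at 68.5, and 4 peaks of 81.5 to 119.6 lay beyond Cyp2j5. At the far end of the second chromosome 7 cluster, 1.33 kb beyond Cyp2t4 and in an intron of Egln2, which encodes an oxygen-sensing prolyl hydroxylase, a perfect core had 410.1 (204.9 and 205.0). At its other end no peak lay within 50 kb of Cyp2b23, and the nearest was 292.8 kb away in an intron of Nlrp9c. In the first chromosome 7 cluster the nearest peak on the left had 64.9, 3.72 kb from Cyp2s1. The nearest on the right had 28.3, 5.47 kb from Cyp2a4, the lowest of the nearest flanking peaks of the clusters. The strongest on the left had 258.5 (131.7 and 125.8), 46.1 kb from Cyp2s1.

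The 5 lone members held 8 peaks in only 0.0679 Mb of gene, or 118 per Mb. The clustered members had 12.8 per Mb and all protein-coding genes 30.4. Of the 8 peaks, 3 lay in Cyp2u1 and 2 in Cyp2w1. Cyp2w1, whose human counterpart is known from fetal gut and colon tumours, held 2 intron peaks over cores on the minus strand, of 101.2 (57.7 and 42.8) and 432.3 (212.1 and 220.8). The second was the strongest inside any member, and 15 more peaks lay within 50 kb, up to 478.6 (236.9 and 242.0) in an intron of 3110082I17Rik. Besides its 5' peak, Cyp2u1 held peaks of 232.0 (123.5 and 111.3) in an intron and 35.5 (20.2 and 12.1) in an exon. Cyp2c23, an arachidonic acid epoxygenase that lies apart from the other Cyp2c genes, held an intron peak of 32.5 (19.5 and 13.5). Cyp2e1, the ethanol- and paracetamol-oxidising P450, held an intron peak of 23.4 (14.3 and 8.1) without a core, absent from the conservative list, and its strongest flanking peak was 277.7, 30.9 kb beyond the gene.

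The core was present in 1 of 4 peaks at 5' ends (25%, 95% interval 0.631 to 80.6), 17 of 22 others inside members (77.3%, 54.6 to 92.2), 14 of 16 others between members (87.5%, 61.7 to 98.4) and 39 of 58 in flanks (67.2%, 53.7 to 79.0). These intervals overlap. Median signals were 50.7, 71.0, 57.3 and 88.9 in the same order.

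Partners and regulators of these enzymes were looked at from a list of 16 genes. They were the electron donors and their reductases Por, Cyb5a and Cyb5r3, the haem-binding Pgrmc1, the drug-sensing receptors Nr1i2 and Nr1i3 with their partner Rxra, the hepatocyte factors Hnf4a, Cebpa, Cebpb, Foxa2 and Onecut1, and Stat5a, Stat5b, Bcl6 and Cux2, known from sex-biased liver expression. A 5' peak was found at 5 of the 16 (31.2%, 95% interval 11.0 to 58.7), close to the 28.3% of all protein-coding genes. These were Cebpa (signal 285.8), Cebpb (168.7), Nr1i2 (141.3), Cux2 (131.4) and Cyb5r3 (106.9), each above the 4 Cyp2 genes with a 5' peak, which reached 60.2. Inside the gene 10 of 16 held a peak (62.5%), against 53.7%.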

How the data were processed

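CTCF ChIP-seq peaks of 2 replicates of newborn liver were used as deposited by the authors in narrowPeak format on mm10, per the labels and the text deposited with the samples: a list for each replicate, a pooled list (each of 300000 peaks), a conservative (54864) and an optimal IDR list (57220). The authors' signal column ranked and described peaks within a list; its scale is not stated. The summit is the start plus the other deposited column used, the offset. The deposited −log10 q-value and score columns were not used. What aligned the reads, what called the peaks and how reads with several places were treated is not given in the sources used here. No read counts were used, so depth is unknown and no interval is given for a signal.

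Summits were placed on GENCODE M21 genes and, for sequence, on GRCm38, the assembly mm10 names, in Python 3.11.15 with numpy 2.4.6, pandas 2.3.3, scipy 1.17.1 and matplotlib 3.10.9. A peak belongs to a region that holds its summit. The CTCF core (14 bases, at most 2 mismatches) was sought within 50 bp of the summit on both strands; near-perfect cores (at most 1 mismatch) were sought over the whole genome and called occupied with a summit within 50 bp. Copies of a site are 60-base windows at least 75% identical. Uniqueness is the share of 36-base words that occur once in the genome on either strand. Counting, the core search and the word count were tested on simulated data with planted answers. Shares have 95% Clopper-Pearson intervals, which speak to counting error alone. For a count of 0 genes the limit is the upper end of that interval. For 0 cores or copies it is 3 divided by their number, as if they were independent. With 1 group there was no contrast and no test. Every member is named; members with a peak at the 5' end or inside, and the strongest and nearest flanking peaks of each cluster, are described. The members and lists were chosen with earlier results of these data known. The comparisons of Cyp2b, Cyp2c70 and Cyp2d copies, of gaps and of near-perfect cores were added after the values were seen. Alternatives were the conservative list, the strongest peaks of the pooled list, each replicate list alone cut to 57220 peaks, and the stronger 28610 peaks. Further ones were overlap of the whole peak, and other distances, gaps, flanks, mismatches and windows. 1 gene of the partner and regulator list is not reported here, and the list's counts leave it out.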

Additional observations from a re-analysis of the deposited data

How the results depend on the processing

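Of 56 alternative values over 7 results, 44 stayed within 1.5 times the main count, or within the interval of the core share, and 12 moved. With only the 28610 peaks of highest signal, the Cyp2 genes with a 5' peak were 0, those with a peak inside 8, peaks between members 8, flank peaks 17, the core share 82% and the density 4.93 per Mb. A shorter list lowers counts and density by itself, and the values over all genes and all peaks at this setting are not given. Moving the 5' limit to 5 kb gave 7 genes, as did any annotated start. Over all protein-coding genes any annotated start gave 7943 of 21938, and the value at 5 kb is not given. Flanks of 20 and 100 kb held 11 and 43 peaks. Allowing 1 or 3 mismatches in the core gave 37% and 89%, and the shares over all peaks at these settings are not given. With each replicate alone, 57220 peaks of its list were kept, not all 300000. In these cut lists 5' genes were 4 to 4, genes with a peak inside 12 to 16 and peaks between members 18 to 20. Flank peaks were 27 to 27, the core share 66.7 to 73.5% and the density 9.55 to 11.1 per Mb. The partner and regulator list, whose alternatives were chosen after seeing the data, gave 5 in each. No paired analysis was possible because the series has 1 group. Clustered genes are not independent, near-identical copies limit where reads can be placed, and the replicates share a biosample label, so none of these ranges covers variation between litters. Counts of 0 bound shares only loosely in subfamilies with few members.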
